A study of Mus musculus with 4 samples.

Results

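The mitochondrial genome contributed 37 of the 54532 genes in the count table, taken as every row listed on chromosome MT: 13 mRNAs, 2 rRNAs and 22 tRNAs. All 37 had the same position and strand in GENCODE release M21 of the mouse genome build GRCm38, and the listed length of each equalled its span. The tissue was the right adrenal gland, taken from adult C57BL/6 males 1 h after an intraperitoneal injection of 10 µg dexamethasone, a synthetic glucocorticoid, or of its vehicle, sterile phosphate-buffered saline (PBS). Each group of 5 mice was pooled into 2 libraries, one of 2 and one of 3 mice, with the surrounding fat trimmed away. No allele or other agent is named for either group, and it is not known which of the numbered replicates holds the larger pool. Errors and p-values therefore rest on n = 2 pools per group and describe the spread between pools, not between mice. For single genes, the SE and p-values of the fit also draw on the spread of the other genes tested.

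Mitochondrial DNA is transcribed from both strands into long RNAs, and the tRNAs that lie between the other genes mark where these are cut into single mRNAs, rRNAs and tRNAs. Its mRNAs encode core subunits of the respiratory chain and of ATP synthase, while the other subunits, the mitochondrial ribosomal proteins and the transcription machinery are encoded in the nucleus. In the adrenal cortex, mitochondria also hold the first and last enzymes of corticosteroid synthesis, and copies of mitochondrial DNA lie scattered in nuclear chromosomes, where they can share reads with the genes they resemble.

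The libraries held between 21904510 and 26948588 counts each, the lowest being PBS replicate 2. The cortical markers Star, Cyp11a1, Cyp11b1 and Hsd3b1 summed to 32964 to 48800 CPM (counts per 1e6 counts after library scaling) and the chromaffin markers Th, Pnmt, Chga and Dbh to 4146 to 6435 CPM, so both parts of the gland were present. Counts also followed gene length by library. The slope of log2 level on log2 length over nuclear coding genes was 0.032 and 0.181 in the dexamethasone libraries and -0.057 and -0.156 in the PBS libraries, and its part in the differences given here was not tested beyond one refit with the trend removed. Of 16027 genes tested with edgeR's quasi-likelihood test, 523 were higher and 219 lower with dexamethasone at an adjusted p under 0.05, against 893 and 180 when library totals alone set the scale.

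Where a mitochondrial gene has a near-identical copy, its deposited count depends on how shared reads were assigned, so the copies come before the levels. Alignment of the 37 annotated transcripts to all other GENCODE M21 transcripts found 7 annotated pseudogenes on the minus strand of chromosome 1 that matched mitochondrial mRNAs at 99% identity or more. Their matches ran from position 6390, within mt-Co1, to position 11042, within mt-Nd4, of the mitochondrial genome, a span of 4653 bases of which 4136 were aligned. The span, called the copied stretch here, corresponds to 4663 bases of chromosome 1. Within its ends lie the whole of 6 mRNAs (mt-Co2, mt-Atp8, mt-Atp6, mt-Co3, mt-Nd3 and mt-Nd4l) and of 5 tRNAs (mt-Ts1, mt-Td, mt-Tk, mt-Tg and mt-Tr). The nuclear sequence between the annotated pseudogenes was not analysed here, so for mt-Atp8, of which 43 of 204 bases were aligned, and for the 5 tRNAs, of which mt-Ts1 had 3 bases aligned and the others 0, a near-identical copy was not shown. The stretch also holds 483 of the 1545 bases of mt-Co1 and 876 of the 1378 bases of mt-Nd4.

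The edge of the copied stretch is shown by 70 bases of mt-Co1 at chrMT:6381-6450 (plus strand) and the first 70 bases of its copy Gm29216 at chr1:24616128-24616197 (minus strand), with differing bases in capitals. Both are GENCODE M21 transcripts of GRCm38, as are all sequences given here.
mt-Co1: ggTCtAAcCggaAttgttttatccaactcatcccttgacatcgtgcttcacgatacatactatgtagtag
Gm29216: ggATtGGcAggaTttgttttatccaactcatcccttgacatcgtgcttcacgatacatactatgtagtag
The pair differed at 6 of these bases, all near the start, and the alignment opened after the first 9 bases of the copy. Over the 483 aligned bases there was 1 mismatch, A1066T, where positions count from 1 at the 5′ end of mt-Co1 and the mitochondrial base is written first.

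A single base separates mt-Nd3 (chrMT:9459-9528, plus strand) from its copy Gm28438 (chr1:24613050-24613119, minus strand), which matters because their counts were the most unequal of the pairs inside the stretch. The differing base is in capitals.
mt-Nd3: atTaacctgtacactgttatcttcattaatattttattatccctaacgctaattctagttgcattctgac
Gm28438: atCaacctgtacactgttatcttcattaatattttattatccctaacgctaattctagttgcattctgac
This T3C difference, counted from the first base of mt-Nd3, was the 1 mismatch in 345 aligned bases. A read that lies wholly within these bases and does not cover the mismatch is the same in both reference sequences.

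The first 90 bases of mt-Co2 (chrMT:7013-7102, plus strand) show the contrast between an identical and a less similar copy. Capitals mark the 2 positions at which the copy Gm13341 on chromosome 2 (chr2:22587873-22587962, minus strand) differs.
mt-Co2: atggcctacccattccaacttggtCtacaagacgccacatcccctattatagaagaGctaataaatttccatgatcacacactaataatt
Gm28661: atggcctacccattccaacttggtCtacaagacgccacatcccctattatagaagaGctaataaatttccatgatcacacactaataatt
Gm13341: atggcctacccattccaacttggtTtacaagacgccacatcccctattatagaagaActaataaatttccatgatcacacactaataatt
Gm28661 (chr1:24615476-24615565, minus strand) was identical to mt-Co2 over all 681 aligned bases, and Gm13341 matched it at 95.9%. Gm28661 held 1434 to 2237 counts per library, close to the 1196 to 1896 of mt-Co2, whereas Gm13341 held 70 to 121.

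The other near-identical pairs also shared their counts unevenly. For every count on the mitochondrial gene, the copy held 0.577 to 1.46 counts for mt-Atp6 (Gm10925), 1.11 to 1.86 for mt-Co3 (Gm28437), 1.81 to 2.47 for mt-Nd4l (Gm10222) and 10.4 to 17.8 for mt-Nd3 (Gm28438). The low end for mt-Atp6 was dexamethasone replicate 1, in which mt-Atp6 had 3345 counts and its copy 1929, while in the other 3 libraries the copy had more counts than the gene. For the genes that reach beyond the stretch the ratio was small, at 0.00812 to 0.0111 for mt-Nd4 (Gm28439) and 0.00151 to 0.00295 for mt-Co1 (Gm29216). The copies themselves held 859 to 1279 (Gm28439) and 811 to 1729 (Gm29216) counts per library. Copies that were 90.7% to 97.6% identical to longer parts of other mRNAs, on chromosomes 2, 4, 11 and 13, had at most 2 counts in a library for mt-Nd5, mt-Nd6 and mt-Cytb. On chromosome 2, Gm13340, a copy of mt-Co1, had 325 to 395, and Gm13339, 96.7% identical to 510 bases of mt-Nd2, had 14 to 24. The nuclear gene Cep295 matched mt-Tl1 at 93.5% over 62 bases and mt-Tn at 91.5% over 71.

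**Figure D1:**
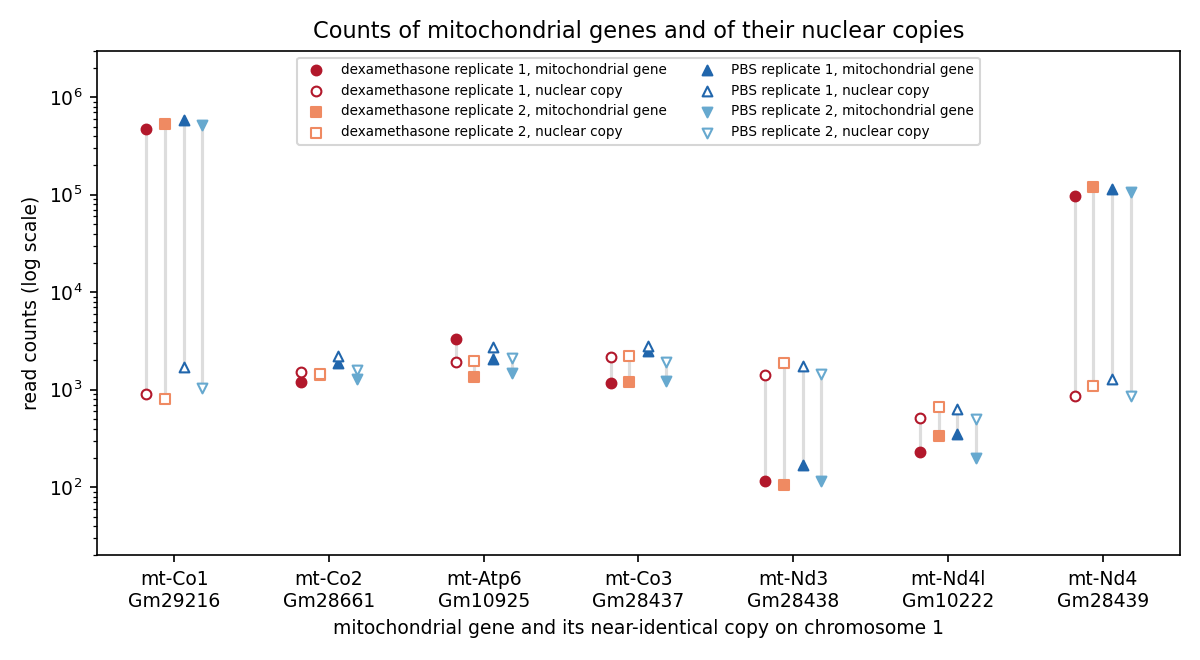
Read counts (log scale) of 7 mitochondrial genes (filled symbols) and of their near-identical copies on chromosome 1 (open symbols), 1 column per library and pair. The copies exceeded mt-Co3, mt-Nd3 and mt-Nd4l in every library, while mt-Co1 and mt-Nd4 lay far above theirs.

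Levels of different genes were compared per length, as CPM scaled by TMM (edgeR's trimmed mean of M-values) and divided by gene length in kb. mt-Co1, the catalytic subunit of cytochrome c oxidase (complex IV), had the highest level at 13593 ± 2019 CPM per kb (SD, n = 4 libraries). Next came mt-Cytb, the mitochondrially encoded subunit of complex III, at 6967 ± 1087, and mt-Nd1, a complex I subunit, at 6922 ± 1343. mt-Co1 was above mt-Cytb in all 4 libraries, but mt-Cytb and mt-Nd1 changed places, with 2 libraries in each order.

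Below them, mt-Nd2 averaged 5478 ± 848 CPM per kb, mt-Nd4 3161 ± 437, mt-Nd6 2646 ± 424 and mt-Nd5 2592 ± 490, all complex I subunits. By full listed length, mt-Nd1 was above mt-Nd2, mt-Nd2 above mt-Nd4 and mt-Nd4 above mt-Nd6 in 4 of 4 libraries. The order of mt-Nd6 and mt-Nd5 held in 3 of 4, so these neighbours did not differ beyond their spread.

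Then the levels stepped down by 21.8-fold, from mt-Nd5 to mt-Atp6, and the 6 mRNAs on the low side of the step were the 6 that lie wholly inside the copied stretch. These ranged from 5.29 to 183 CPM per kb over genes and libraries, against 2097 to 16044 for the 7 others. mt-Atp6, an ATP synthase subunit, averaged 119 ± 46.4 CPM per kb, mt-Co2 84.0 ± 17.3 and mt-Co3 76.8 ± 30.7, the last 2 being complex IV subunits. The complex I subunits mt-Nd4l and mt-Nd3 averaged 36.8 ± 7.22 and 14.5 ± 3.39, and the ATP synthase subunit mt-Atp8 7.93 ± 1.95. mt-Atp6 was above mt-Co2, and mt-Co2 above mt-Co3, in 3 of 4 libraries each, but all 3 stood in this order in 2 of 4, while mt-Co3, mt-Nd4l, mt-Nd3 and mt-Atp8 followed each other in 4 of 4.

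With the counts of the chromosome 1 copies added, an alternative chosen after the data were seen, mt-Atp6 stood at 246 CPM per kb, mt-Nd3 at 199, mt-Co3 at 191, mt-Co2 at 183 and mt-Nd4l at 113. All 5 remained far below mt-Nd5, and mt-Nd3 was 13.8-fold above its level alone. How reads that match both places were counted is not given in the sources used here. The levels of these 6 mRNAs are uncertain and cannot be read as abundance. The same holds in part for mt-Nd4: divided by the 502 bases outside the stretch, its level would be 8676 ± 1199 CPM per kb, and that of mt-Co1 over 1062 bases 19776 ± 2937. So divided, mt-Nd4 ran from 7195 to 10132 CPM per kb and stood above mt-Nd2, mt-Nd1 and mt-Cytb in every library. Its place below mt-Nd2 by full length is therefore uncertain too. mt-Nd4l and mt-Nd4 are carried on a single mRNA and overlap by 7 bases, yet their levels per kb lay on opposite sides of the step.

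mt-Atp8 has a further limit, since its last bases are also the first bases of mt-Atp6. The end of mt-Atp8 at chrMT:7907-7969 (plus strand) is shown with the shared bases in capitals.
mt-Atp8: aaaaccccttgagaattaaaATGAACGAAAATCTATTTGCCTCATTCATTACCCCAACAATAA
The overlap spans 43 of the 204 bases of mt-Atp8, which received 29 to 52 counts per library.

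**Figure D2:**
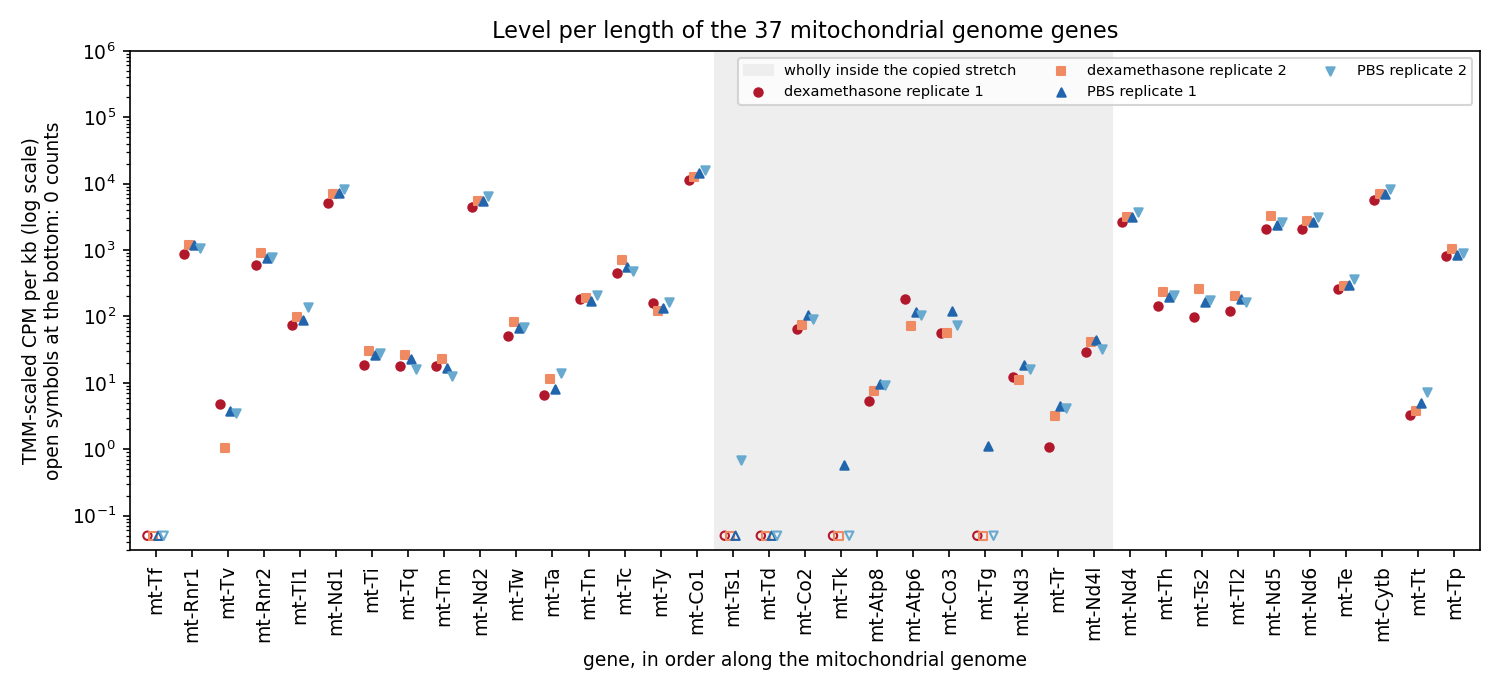
TMM-scaled CPM per kb (log scale) of all 37 genes in their order along the mitochondrial genome, with 1 symbol per library. Symbols within the shaded block, the genes wholly inside the copied stretch, lay at or below 183 CPM per kb, and the mRNAs on either side lay at 2097 or more.

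Mitochondrial genome genes took 4.59% and 5.59% of all counts with dexamethasone, and 5.45% and 6.02% with PBS (replicate 1 first, here and in all pairs of values). The groups overlapped, at 5.09% ± 0.706 (SD, n = 2) with dexamethasone and 5.74% ± 0.404 with PBS, and the exact two-sided permutation test gave p = 0.667, with 0.33 as the smallest p that 2 against 2 libraries allow. Without dexamethasone replicate 1 the difference was -0.15 percentage points, and without dexamethasone replicate 2 it was -1.14. On the TMM-scaled CPM scale the sum was 44407 and 54348 with dexamethasone and 55338 and 63436 with PBS. There the groups only just did not overlap, where 29.7% of all genes were lower without overlap.

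Between 94.9% and 96.1% of mitochondrial counts fell on mRNAs. mt-Co1 alone held 38.6% on average, mt-Cytb 14.6%, mt-Nd1 12.1%, mt-Nd2 10.4%, mt-Nd5 8.74% and mt-Nd4 8.01%. Of all counts, complex IV mRNAs took 1.83% and 2.02% with dexamethasone and 2.19% and 2.37% with PBS, nearly all of it mt-Co1. This share was lower without overlap, where 29.7% of all genes were so in CPM. Of mitochondrial counts, complex IV mRNAs took 39.9% and 36.1% against 40.2% and 39.3%, with overlap. Complex I mRNAs took 1.87% and 2.47% of all counts against 2.23% and 2.51%, and complex III 0.677% and 0.811% against 0.777% and 0.910%, both with overlap. In summed CPM, complex III was lower without overlap. rRNAs took 0.185% and 0.263% of all counts against 0.228% and 0.216%, and tRNAs 0.0169% and 0.0230% against 0.0185% and 0.0190%. For rRNAs and tRNAs the 2 dexamethasone libraries enclosed both PBS libraries.

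**Figure D3:**
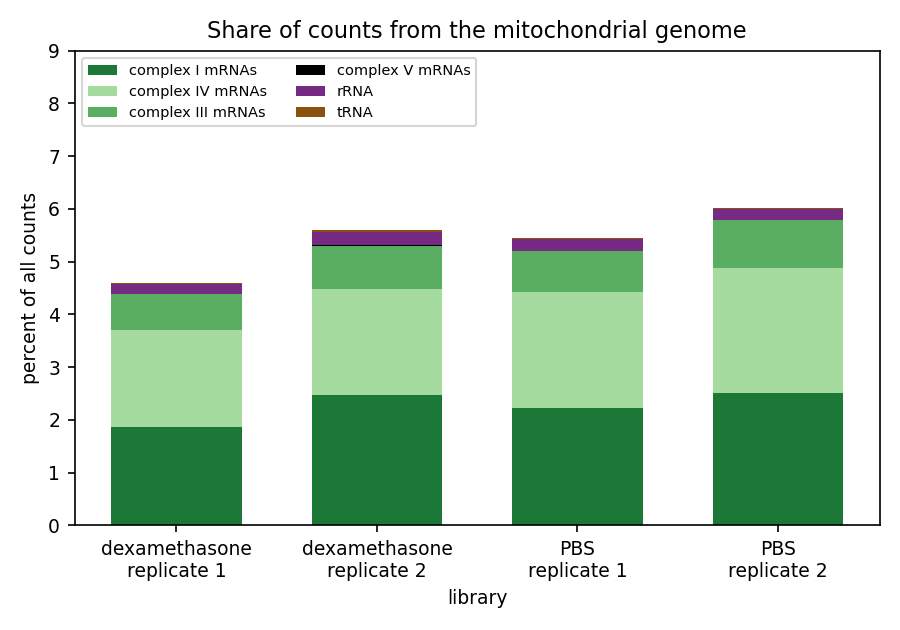
Percent of all counts from the mitochondrial genome in each library, stacked by the respiratory complex the mRNAs belong to, rRNA and tRNA. Dexamethasone replicate 1 was lowest at 4.59% and PBS replicate 2 highest at 6.02%, with the other 2 libraries between them at 5.45% and 5.59%.

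In the comparison of single genes, none of the 29 mitochondrial genome genes tested passed the threshold with edgeR, against 4.63% of all genes tested. At an unadjusted p under 0.05 there were 3, the mRNAs mt-Co3, mt-Co2 and mt-Nd3, against 27.5% of all genes. All 3 lie wholly inside the copied stretch, where levels are uncertain, and 0 of the 7 mRNAs not wholly inside it had such a p. The DESeq2 Wald test passed mt-Co3 alone, where it passed 12.6% of all genes to which it gave an adjusted p. The 13 mRNAs had a median log2 fold change of -0.29, with 11 below 0, beside a median of 0.01 over all genes tested and 49.0% of them below 0. The libraries of 8 mRNAs did not overlap and were lower with dexamethasone, against 29.7% of all genes. Of these 8, 4 lie wholly inside the stretch and 4 do not. Refitted with the trend of counts with gene length removed, the mRNA median turned to 0.19 and that of all genes was 0.02. These mRNAs were counted in the same 4 libraries, and all but mt-Nd6 lie on 1 strand, so their number adds no replicates.

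Among the complex I mRNAs, mt-Nd1 was at 4899.6 and 6709.7 CPM with dexamethasone and 6885 and 8004 with PBS. mt-Nd2 was at 4638 and 5613 against 5702 and 6791 CPM. For both, dexamethasone replicate 1 was the lowest library and the groups did not overlap. The log2 fold change was -0.36 ± 0.19 (SE) for mt-Nd1, with an edgeR adjusted p of 0.243, and -0.29 ± 0.17 for mt-Nd2, with an edgeR adjusted p of 0.299.

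mt-Nd4 was at 3612 and 4379 CPM with dexamethasone and 4344 and 5086 with PBS, and mt-Nd6, the mRNA of the opposite strand, at 1093 and 1412 against 1359 and 1629. Both overlapped between groups, with dexamethasone replicate 2 just above PBS replicate 1. mt-Nd5 was at 3825 and 5903 against 4306 and 4877 CPM, where dexamethasone held both the lowest and the highest library. The log2 fold changes were -0.24 ± 0.17 for mt-Nd4, -0.25 ± 0.18 for mt-Nd6 and 0.08 ± 0.21 for mt-Nd5, with edgeR adjusted p of 0.380, 0.382 and 0.829.

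Inside the copied stretch, mt-Nd3 was at 4.28 and 3.85 CPM with dexamethasone and 6.4 and 5.62 with PBS, lower without overlap. Its log2 fold change was -0.57 ± 0.23 with an edgeR adjusted p of 0.158, and -0.19 once the counts of Gm28438 were added. mt-Nd4l was at 8.60 and 12.3 CPM against 13.1 and 9.66, with overlap and a log2 fold change of -0.13 ± 0.24.

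In complex III, mt-Cytb was at 6542 and 7879 CPM with dexamethasone and 7882 and 9579 with PBS. Dexamethasone replicate 2 and PBS replicate 1 were nearly equal, so the groups only just did not overlap, and the log2 fold change was -0.28 ± 0.17 with an edgeR adjusted p of 0.320.

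In complex IV, mt-Co1 was at 17615 and 19515 CPM with dexamethasone and 22089 and 24788 with PBS. Its groups did not overlap, and its log2 fold change was -0.34 ± 0.15 with an edgeR adjusted p of 0.191. Its partial copy Gm29216 passed as lower, against 1.37% of all genes, at 33.9 and 29.5 CPM against 65.1 and 50.5. The log2 fold change of the copy was -0.87 ± 0.17 with an edgeR adjusted p of 0.0277, and -0.22 with the length trend removed. The other near-identical copies did not pass. mt-Co2 was at 44.5 and 51.5 against 71.4 and 62.4 CPM. It too was lower without overlap, by -0.48 ± 0.15 on the log2 scale with an edgeR adjusted p of 0.0874, and by -0.53 with Gm28661 added.

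mt-Co3 had the largest difference of the 29 genes, at 43.6 and 43.8 CPM with dexamethasone and 94.8 and 58.5 with PBS. PBS replicate 1 stood well above the other 3 libraries. The log2 fold change was -0.81 ± 0.21 with an edgeR adjusted p of 0.0620, and -0.44 without PBS replicate 1. It passed the threshold without PBS replicate 2 (edgeR adjusted p = 2.9e-05), without dexamethasone replicate 1 (0.0457), with no filter on low counts (8.4e-05), with a block of crossed replicate numbers (0.0154) and with DESeq2 (0.00558). Over all alternatives its adjusted p ran from 2.9e-05 to 0.550, the highest with the length trend removed. With the counts of Gm28437 added it was -0.50 with an edgeR adjusted p of 0.0965.

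Of the ATP synthase mRNAs, mt-Atp6 was at 124 and 49.3 CPM with dexamethasone and 78.7 and 71.1 with PBS. Dexamethasone replicate 1 was high and dexamethasone replicate 2 low, so the log2 fold change of 0.21 ± 0.34 rested on replicate 1. Without it the value was -0.61, and with Gm10925 added it was -0.16. mt-Atp8 was at 1.08 and 1.56 CPM against 1.96 and 1.87, lower without overlap but at few counts, with a log2 fold change of -0.53 ± 0.36 and an edgeR adjusted p of 0.369.

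The rRNA of the small ribosomal subunit, mt-Rnr1, was at 835 and 1126 CPM with dexamethasone and 1119.6 and 1040.1 with PBS. That of the large subunit, mt-Rnr2, was at 957 and 1426 against 1199 and 1234 CPM. In both, dexamethasone replicate 1 was the lowest library and dexamethasone replicate 2 the highest. The log2 fold changes were -0.14 ± 0.18 and -0.03 ± 0.20, with edgeR adjusted p of 0.645 and 0.938, and mt-Rnr2 turned positive when library totals alone set the scale. Per kb, mt-Rnr1 averaged 1079 ± 142 CPM and mt-Rnr2 761 ± 122. The mRNAs mt-Co1, mt-Cytb, mt-Nd1, mt-Nd2, mt-Nd4, mt-Nd6 and mt-Nd5 were thus counted at higher levels than the rRNAs. Whether this order follows abundance in the tissue was not tested.

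**Figure D4:**
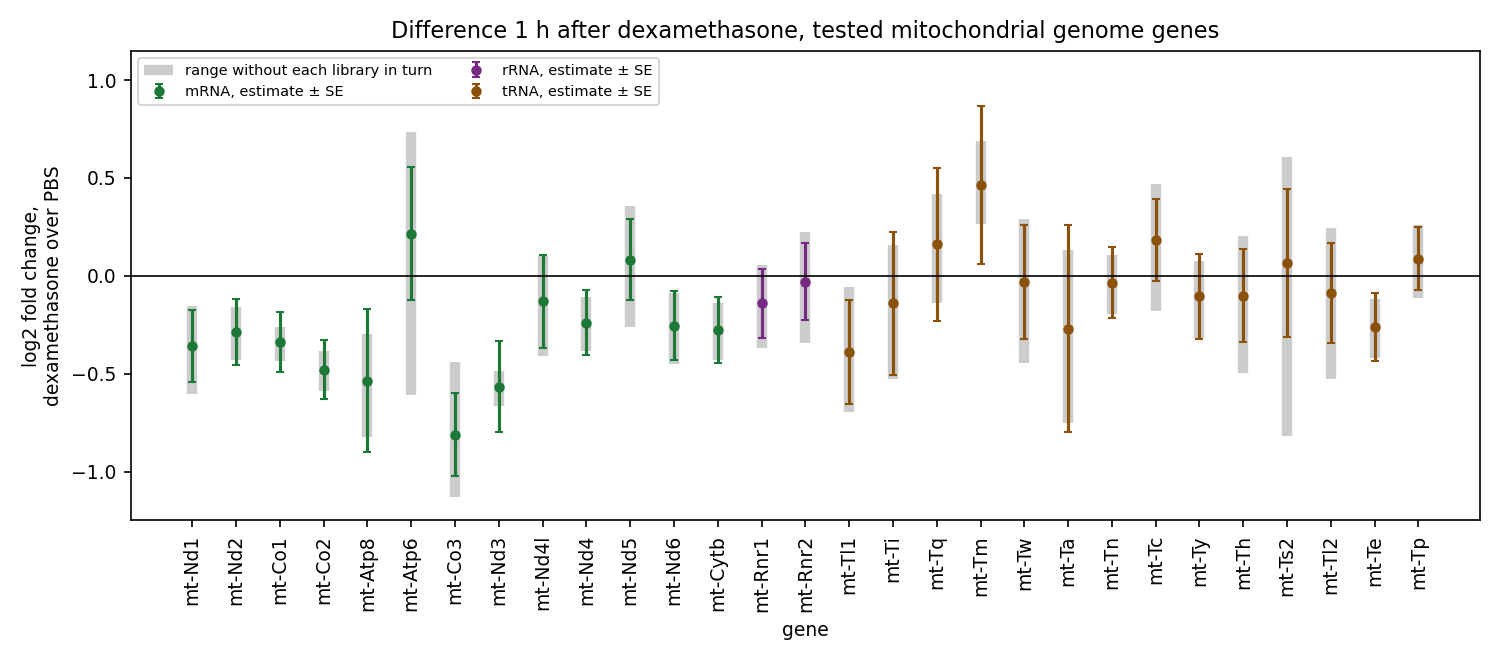
Log2 fold change of dexamethasone over PBS for the 29 mitochondrial genome genes tested, as estimate ± SE from edgeR, with grey bars for the range when each library in turn was left out. mt-Co3 lay lowest at -0.81, and the grey bars of the rRNAs and of all tRNAs but mt-Tl1, mt-Tm and mt-Te crossed 0.

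Of the 22 tRNAs, 14 had enough counts to be tested, and mt-Tf and mt-Td had no count in any library. All 14 lay outside the copied stretch, where 17 tRNAs held 19653 counts in all. The 5 inside it held 26 counts over the 4 libraries, of which mt-Tr had 22. Low counts were not confined to the stretch. Outside it, mt-Tf, mt-Tv and mt-Tt, all on the plus strand, had 0, 23 and 32 counts over the 4 libraries. The most counted tRNAs were those for proline (mt-Tp), cysteine (mt-Tc) and glutamate (mt-Te), all on the minus strand. They are shown beside mt-Td and mt-Tk, for aspartate and lysine, from inside the stretch, with the anticodon in capitals.
mt-Tp: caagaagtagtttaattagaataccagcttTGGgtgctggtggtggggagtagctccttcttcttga
mt-Tc: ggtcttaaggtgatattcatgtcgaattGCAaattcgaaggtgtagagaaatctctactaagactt
mt-Te: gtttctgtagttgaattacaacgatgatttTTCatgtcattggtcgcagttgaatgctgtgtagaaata
mt-Td: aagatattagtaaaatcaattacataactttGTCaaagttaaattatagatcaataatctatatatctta
mt-Tk: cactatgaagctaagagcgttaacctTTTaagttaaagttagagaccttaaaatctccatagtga
mt-Tp (chrMT:15356-15422, minus strand) averaged 898 ± 104 CPM per kb, mt-Tc (chrMT:5192-5257, minus strand) 551 ± 116 and mt-Te (chrMT:14071-14139, minus strand) 301 ± 43.5. mt-Td (chrMT:6942-7011, plus strand) was at 0, and mt-Tk (chrMT:7700-7764, plus strand) had 1 count in PBS replicate 1.

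mt-Tp was at 53.9 and 70.1 CPM with dexamethasone and 57.2 and 59.5 with PBS, and mt-Tc at 30.1 and 47.2 against 36.0 and 32.1. Both overlapped, with log2 fold changes of 0.09 ± 0.16 and 0.18 ± 0.21. mt-Te was at 17.9 and 19.9 CPM against 20.3 and 25, the single one of the 14 tested that was lower without overlap, against 29.7% of all genes, by -0.26 ± 0.17 with an edgeR adjusted p of 0.355. mt-Tm, for methionine, was at 1.23 and 1.60 against 1.17 and 0.865 CPM, the single one higher without overlap, against 30.8% of all genes, by 0.47 ± 0.40 with an edgeR adjusted p of 0.483.

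Over the 14 tested tRNAs the log2 fold changes ran from -0.39 for mt-Tl1 to 0.47 for mt-Tm, with a median of -0.06, 9 below 0 and 5 above. Dexamethasone replicate 1 was the lowest library for 10 of them and dexamethasone replicate 2 the highest for 9. mt-Ts2, for serine, showed this most, at 5.73 and 15.4 CPM with dexamethasone and 9.79 and 10.5 with PBS. With the length trend removed the tRNA median was 1.30 and mt-Ty passed as higher, but the trend was fitted on genes of 243 bases or more and tRNAs have 59 to 75 bases, so this value is an extrapolation. A count on a tRNA may come from the tRNA or from a longer RNA that spans it, which these counts do not tell apart.

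Library by library, the 7 mRNAs not wholly inside the copied stretch kept much the same order. Centred on each gene's mean log2 level, their median was -0.28 in dexamethasone replicate 1, 0.02 in dexamethasone replicate 2, 0.01 in PBS replicate 1 and 0.26 in PBS replicate 2. Dexamethasone replicate 1 was the lowest library for all 7, and PBS replicate 2 the highest for 6, the exception being mt-Nd5. The middle libraries were close in this median but not in every gene, since mt-Nd5 stood at 0.34 in dexamethasone replicate 2 and -0.12 in PBS replicate 1, and mt-Co1 at -0.09 and 0.08. The median log2 fold change over the 13 mRNAs was -0.16 without dexamethasone replicate 1 and -0.43 without dexamethasone replicate 2.

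Ratios between genes cancel the scale of a library, but not its trend with gene length where the genes differ in length. Only some of the ratios formed are given. mt-Nd5 stood at 0.800 and 1.02 times mt-Nd4 per kb with dexamethasone and at 0.749 and 0.724 times with PBS. mt-Nd1 stood at 8.46 and 7.78 times mt-Rnr2 with dexamethasone and at 9.50 and 10.7 times with PBS. Neither ratio overlapped between groups, where 60.5% of all genes tested had CPM that did not overlap. mt-Nd5 and mt-Nd4 have 1824 and 1378 bases, and mt-Nd1 and mt-Rnr2 957 and 1582. The first ratio ranked the libraries in the order of their slopes on gene length, and the second in the reverse order. The part of the length trend in these ratios was not tested. mt-Rnr2 over mt-Rnr1 ranged from 0.646 to 0.764 and mt-Co1 over mt-Cytb from 1.83 to 2.08, and both overlapped.

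Genes on the minus strand, mt-Nd6 and 8 tRNAs, held 2.70% to 2.89% of mitochondrial counts, and the 28 plus strand genes the rest. The strand setting of the counting is also unknown, so reads of mt-Nd6 and of RNA from the opposite strand, mt-Nd5 included where they share 14 bases, cannot be told apart. tRNAs as a whole took 0.367% and 0.412% of mitochondrial counts with dexamethasone and 0.339% and 0.315% with PBS. This share was higher without overlap, where 30.8% of all genes were so in CPM. The 8 minus strand tRNAs were higher without overlap in this share too, while the 14 plus strand tRNAs overlapped. For tRNAs as a whole, the share of all counts did overlap, as did the summed CPM, at 163 and 224 against 188 and 200.

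Of 85 nuclear genes that run the mitochondrial genome, 0 were higher and 1 lower with edgeR, against 3.26% and 1.37% of all genes, so the lower count was near the share of all genes. At an unadjusted p under 0.05 there were 19, against 27.5% of all genes. DESeq2 called 0 higher and 6 lower, against 6.45% and 6.13%. The 27 genes of mitochondrial DNA transcription and replication had a median log2 fold change of 0.07, the 46 of RNA processing, modification and decay -0.13, and 12 regulators of mitochondrial biogenesis 0.12. Polrmt, the mitochondrial RNA polymerase, was at 47.7 and 52.6 CPM with dexamethasone and 50.2 and 48.5 with PBS, with overlap and a log2 fold change of 0.02 ± 0.14.

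The transcription factors Tfam and Tfb2m had log2 fold changes of 0.10 ± 0.14 and 0.14 ± 0.14, and the elongation factor Tefm -0.19 ± 0.20. The replicative helicase Twnk and DNA polymerase Polg had 0.33 ± 0.14 and 0.12 ± 0.14. Lrpprc and Slirp, which form a complex that stabilises mitochondrial mRNAs, had 0.12 ± 0.14 and -1.13 ± 0.40, the latter at 1.79 and 1.05 CPM against 2.37 and 3.89, with an edgeR adjusted p of 0.112. None of these 7 passed, and neither did Ppargc1a, a coactivator of mitochondrial biogenesis, at 0.27 ± 0.48.

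The gene that passed was Pprc1, a coactivator related to Ppargc1a, at 29.4 and 33.1 CPM with dexamethasone and 53.2 and 57.8 with PBS. Its libraries were far apart, and its log2 fold change was -0.83 ± 0.15 with an edgeR adjusted p of 0.0199, and -0.99 with the length trend removed. It passed without each library in turn but not with a replicate block. Those next to passing were Tk2, the mitochondrial thymidine kinase, at -0.54 ± 0.16, Hsd17b10, a subunit of the nuclease that cuts the 5′ ends of mitochondrial tRNAs, at -0.57 ± 0.15, the rRNA methyltransferases Mrm1 and Mrm3 at -0.55 ± 0.15 and -0.69 ± 0.19, and Cdk5rap1, which modifies mitochondrial tRNAs, at 0.70 ± 0.19.

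The nuclear partners of the mitochondrial mRNAs had lower medians. The 78 respiratory chain and ATP synthase subunits had a median log2 fold change of -0.66, all below 0, and 76 were lower without overlap against 29.7% of all genes, while 2 passed as lower against 1.37%. These were Ndufb7 of complex I, at 59.3 and 45.6 CPM against 81.1 and 103, with a log2 fold change of -0.81 ± 0.18 and an edgeR adjusted p of 0.0417, and Uqcr10 of complex III, at 96.2 and 63.8 against 135 and 172 CPM, with -0.94 ± 0.21 and 0.0420. Neither passed without dexamethasone replicate 2, when the list had 0 calls, and without PBS replicate 1 it had 67. The 77 mitochondrial ribosomal protein genes had a median of -0.50, and 72 were lower without overlap against 29.7%. Mrps11, Mrpl54 and Mrps34 passed as lower, 3 of 77 against 1.37%, with 0 to 46 calls as 1 library was left out.

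With the length trend removed these medians were -0.33 and -0.31, still below 0, where that of the mitochondrial mRNAs turned to 0.19. Summed CPM of mitochondrial mRNAs was 4.07 and 6.32 times that of the nuclear subunits with dexamethasone and 4.33 and 4.24 times with PBS. The ratio overlapped between groups, and dexamethasone replicate 2 was high in it.

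**Figure D5:**
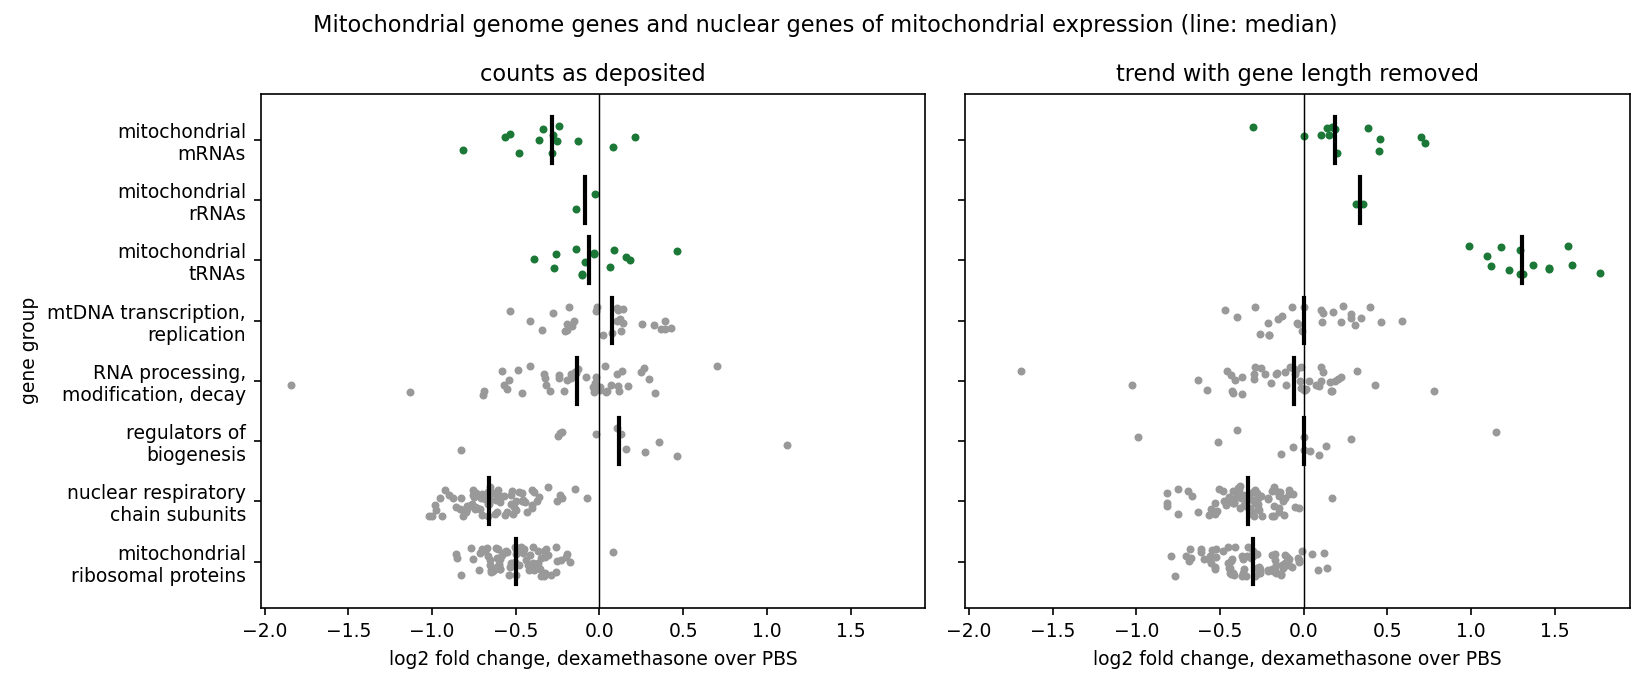
Log2 fold change of dexamethasone over PBS for each gene (points) and the median (line) of the mitochondrial genome groups (green) and the nuclear lists (grey), from the counts as deposited (left) and with the trend with gene length removed (right). Mitochondrial mRNAs had a median of -0.29 on the left and 0.19 on the right, and the nuclear subunits -0.66 and -0.33.

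Markers of the cells in the samples moved as well, and their part in the mitochondrial levels was not tested. The cortical markers were lower without overlap in 4 of 4, against 29.7% of all genes, summing to 36588 and 32964 CPM with dexamethasone and 48800 and 47337 with PBS, and 0 of 4 passed. The 4 chromaffin markers summed to 6010 and 4518 CPM against 4146 and 6435, with overlap in all 4. Of 5 red blood cell markers, 3 passed as lower, against 1.37% of all genes, and the list summed to 146 and 137 CPM against 226 and 394. With the length trend removed 0 of the 5 passed, and their median went from -1.17 to -0.61. Of 4 macrophage markers 1, Mrc1, passed as higher, against 3.26% of all genes, and the list summed to 140.2 and 142 CPM against 99.4 and 101.

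Brown fat markers summed to 22.3 and 6.94 CPM against 8.96 and 16.2, white fat markers to 149.5 and 108 against 139 and 168, and skeletal muscle markers to 1.38 and 0.836 against 0.377 and 0.192. None of the brown or white fat markers passed, and of the muscle markers only Acta1 had enough counts to be tested. It passed as higher, against 3.26% of all genes, at 24 and 23 counts with dexamethasone and 4 and 1 with PBS. No marker gene was at 0 in all libraries. In whole glands, fewer cells of a type and less RNA per cell cannot be told apart.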

How the data were processed

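The values deposited by the authors are raw read counts, whole numbers for each gene, with symbols, biotypes, coordinates and lengths. Per the submitters' processing notes, the tools were HTSeq 0.6.1, STAR 2.5 and CASAVA 1.8 and the genome build mm10 (GRCm38). Their roles, the strand setting and the treatment of reads with several matches are not stated there. Column initials were read as D for dexamethasone and S for saline.

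Genes were filtered with filterByExpr by group, which left 16027 of the 27040 genes with a count, scaled by TMM factors (1.04, 1.03, 0.986 and 0.950) and tested with edgeR 4.0.16 (quasi-likelihood, group as the sole term, 2 residual degrees of freedom) in R 4.3.3. The Benjamini-Hochberg adjustment ran over every gene tested and calls needed an adjusted p under 0.05. DESeq2 1.42.0 and limma 3.58.1 (voom) were alternatives. Transcripts were aligned with BLAST+ 2.17.0 (matches of at least 50 bases and 90% identity). The length trend was a slope per library over 14236 nuclear coding genes. Centred log2 levels used a pseudocount of 1 CPM. The fit was tested on simulated data.

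All 37 mitochondrial genome genes are accounted for, the mRNAs and rRNAs singly. The rule for nuclear genes took members that passed, the 4 of each list with the smallest p, and 9 fixed genes; not all are printed. The members and lists were chosen with earlier results of these data known.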

Additional observations from a re-analysis of the deposited data

How the results depend on the processing

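The median of the mitochondrial mRNAs kept its sign in 13 of 14 alternatives to the fit, from -0.43 to -0.16 as 1 library was left out, and was 0.19 with the length trend removed. Higher mitochondrial genome genes numbered 0 in the main fit and 1 with the length trend removed, mt-Ty, whose log2 fold change went from -0.11 to 1.18. Lower ones numbered 0 in the main fit, 4 with no filter on low counts (mt-Nd1, mt-Co1, mt-Co2 and mt-Co3), 1 with the DESeq2 Wald test and 0 to 2 as 1 library was left out. Of 406 single-gene values under an alternative, 395 kept their side of the threshold and 50 changed sign, 20 of these with the length trend removed and 9 without dexamethasone replicate 1. Leaving out the mRNAs that touch the copied stretch moved the median level per length from 2592 to 5478 CPM per kb.
For nuclear genes of mitochondrial gene expression, higher calls numbered 0 in the main fit, 1 with library totals, 1 with no filter and 0 to 4 without 1 library. Lower calls numbered 1 in the main fit, 8 with no filter, 6 with DESeq2, 2 with the length trend removed and 1 to 10 without 1 library. Nuclear respiratory chain subunits that were lower numbered 2, then 63, 49 and 1 under those 3 settings and 0 to 67 without 1 library. Mitochondrial ribosomal protein genes that were lower numbered 3, then 39 with no filter, 26 with DESeq2 and 0 to 46 without 1 library. Over all genes, 523 higher and 219 lower calls became 1384 and 1329 with no filter, 913 and 868 with DESeq2, 321 and 132 with the length trend removed, 893 higher with library totals, and 337 to 1595 higher and 147 to 1747 lower without 1 library. The causes of these changes were not tested.
Replicate numbers are not stated to pair the pools, and deviations of same-numbered libraries correlated at -0.163 across genes. A fit with the replicate number as a block gave 244 higher and 89 lower genes over all, and 0 lower calls among mitochondrial genome genes, nuclear genes of mitochondrial gene expression, subunits and ribosomal proteins. A block with crossed numbers, added after the data were seen, as were the nuclear copies and the lengths outside the stretch, gave 1546 higher and 1465 lower genes over all. It gave 0 higher and 2 lower mitochondrial genome genes (mt-Co2 and mt-Co3), 2 higher and 9 lower nuclear genes of mitochondrial gene expression, 70 lower subunits and 48 lower ribosomal proteins.
Depth limits many of the tRNAs and, inside the copied stretch, mt-Atp8 and mt-Nd3. The unknown assignment of shared reads limits the mRNAs there that have a near-identical copy, and 2 pools per group limit every comparison.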
